A study of Mus musculus with 6 samples.

Results

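Cytochrome P450 (Cyp), UDP-glucuronosyltransferase (Ugt), sulfotransferase (Sult) and carboxylesterase (Ces) genes were examined in the colon of mice with chronic colitis induced by dextran sulfate sodium (DSS), a polymer that is toxic to the gut lining, and in control colon. Members were taken by symbol alone: a Cyp name with a family number, a subfamily letter and a gene number, or a name that starts with Ugt, Sult or Ces and a number, with 5 names ending in a pseudogene tag left out. The rule gave 157 of 24421 gene rows, namely 99 Cyp, 21 Ugt, 19 Sult and 18 Ces genes, and 1 of them, Cyp4x1os, is annotated as an antisense RNA. There were 3 samples of DSS colon and 3 of control colon, all labelled as C57BL/6 mice of 7 weeks. No other allele or agent is named for either group, and the labels leave unsaid if each sample is its own mouse. The p-values therefore reflect sample-to-sample spread alone, and that spread may be technical. The question behind the series concerns the histone mark H3K27ac in gut inflammation, and only expression was analysed here. The unit is FPKM, a read count per transcript length and library size. Comparisons between samples can still depend on the scaling, and results under other scalings are given in the last section.

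These 4 families carry out the chemical handling of foreign and lipid-like compounds. P450 enzymes are haem proteins that insert oxygen into drugs, steroids and fatty acids. Ugt enzymes attach glucuronic acid, Sult enzymes attach sulfate, and Ces enzymes split ester bonds of drugs and of neutral lipids. In the gut they sit mainly in the absorptive epithelium, where they act on what the lumen delivers, and several Cyp subfamilies also oxidise arachidonic acid and leukotrienes, the lipid mediators of inflammation.

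The samples differed in more than their group. FPKM summed to between 629036 and 678076 in DSS samples and between 609544 and 638096 in control samples, and read depth is unknown because low values showed no steps of single reads. The 16 markers of colonic epithelium were all above the level for testing, and 4 of 16 were called lower. Their summed level was 12645 to 19877 FPKM in DSS samples and 18242 to 24154 FPKM in controls. Car1 alone had 1397, 9924 and 5679 FPKM in DSS 1, 2 and 3, against 3688, 2860 and 2401 FPKM in control 1, 2 and 3. Of the 16 markers 10, 11 and 10 lay below every control in DSS 1, 2 and 3, and 0, 3 and 3 above. Over all tested genes the shares below every control were 18%, 33.7% and 21.6%, and those above 48.8%, 39.9% and 51.7%. Leukocyte markers summed to between 3028 and 4397 FPKM in DSS samples and between 377 and 460 FPKM in controls (4 of 9 tested called higher). Csf3r, 1 of those 4, was under 1 FPKM in every control and was tested through the DSS samples alone, so it could only be called higher. Most of the DSS sums was S100a8, at 2256, 3837 and 3593 FPKM, against at most 15.3 FPKM in controls. Of 8 posterior Hox genes, which mark position along the gut, 6 were tested, and their list summed to 213, 10.5 and 36.3 FPKM in DSS 1, 2 and 3, against 168, 290 and 334 FPKM in control 1, 2 and 3. The sum of DSS 1 lay within the control range, most of it from Hoxb13 (183 FPKM), but 4 of the 6 tested Hox genes were below every control in DSS 1 too, and Hoxd11 was called lower. The labels do not give the position of the colon piece sampled. Markers of small intestinal enterocytes summed to 131, 1157 and 752 FPKM in the DSS samples and 123 to 153 FPKM in controls. Most of that was Fabp2, and none of the 4 tested was called. All 4 were above every control in DSS 2, Slc10a2 at 62.4 FPKM among them. In DSS 3, 2 of the 4 were above every control and 1, Apob, was below. Of the markers not tested, Apoa4 and Sis reached 1.24 and 1.04 FPKM in DSS 2, and Lct and Apoc3 stayed at or under 0.171 FPKM. Smooth muscle markers summed to between 1180 and 3351 FPKM in DSS samples and between 3524 and 4467 FPKM in controls, with none of 7 called. All 5 tested adipocyte markers were called, Adipoq, Cfd and Retn lower and Fabp4 and Cidec higher. Adipoq and Retn were under 1 FPKM in every DSS sample and were tested through the controls alone, so they could only be called lower. Of 8 hepatocyte markers, Ttr had 2.09 to 15.5 FPKM in DSS samples and 24.5 to 41.3 FPKM in controls, Alb had at most 0.0646 FPKM in DSS samples and 1.08 FPKM in controls, and Fga, Fgb, Fgg and Serpina3k, at most 1.95 FPKM in DSS samples, were listed at 0 in every control. The part these differences play in the results below was not tested, and in a piece of tissue fewer cells of a type and less RNA per cell cannot be told apart.

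The Cyp genes that fell in DSS colon came mostly from a pair of gene clusters, with 5 Cyp2d and 3 Cyp2c genes among 10. Of the 157 members 52 reached 1 FPKM in at least 3 samples and were tested, 49 others were read at lower levels, and 56 were listed at 0 in every sample. Among the 52 tested, 11 fell and 3 rose (limma on log2(FPKM + 1), adjusted over all 12348 tested genes, adjusted p under 0.05). The fallers were Cyp2c40, Cyp2c67, Cyp2c69, Cyp2d10, Cyp2d11, Cyp2d12, Cyp2d13, Cyp2d34, Cyp2f2, Cyp4f16 and Ces2g, and the risers were Cyp4f18, Cyp7b1 and Ces1g. Cyp2c67 and Cyp2d11 were under 1 FPKM in every DSS sample and reached the level for testing through the controls alone. Their calls could therefore only be falls. Cyp2c40, Cyp2c69, Cyp2d13, Cyp2f2 and Ces2g were under 1 FPKM in at least 1 DSS sample and needed the controls to reach that level. Cyp7b1 was under 1 FPKM in control 1 and control 3 and needed the DSS samples. The counts and shares given here include all of these genes. Of the 11 fallers 6 have near-identical copies, among which reads may be shared. Cyp2d13 had no single match in the annotation, so copies of it may have been missed. Over all tested genes, 2.56% were called lower and 6.34% higher in DSS, 8.9% in all. Among the tested members these shares were 21.2% lower and 5.77% higher. The median log2 fold change was -0.35 over the tested members and 0.13 over all tested genes. By family, 10 of 32 tested Cyp genes fell and 2 rose, and 1 of 9 Ces genes fell and 1 rose. None of 5 Ugt genes passed and none of 6 Sult genes, where limma p-values before adjustment were under 0.05 for 0 Ugt genes and for 1 Sult gene, and for 28.3% of all tested genes. The counts lean on single samples: without DSS 3, control 1, control 2 or control 3 the fallers numbered 4, 4, 2 and 2, and the risers 1, 1, 2 and 1. Calls over all tested genes dropped in the same fits, from 8.9% to 2.81%, 3.46%, 2.05% and 2.27%. Without DSS 1, 13 members fell and 10 rose, beside 13% of all tested genes called. Without DSS 2 the fallers and risers numbered 11 and 3, beside 6.21% of all tested genes called. In that fit Cyp2c40, Cyp2c67, Cyp2d13 and Cyp2f2 were lost and Ces2c, Cyp2d9, Cyp2e1 and Cyp3a13 gained as lower.

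**Figure D1:**
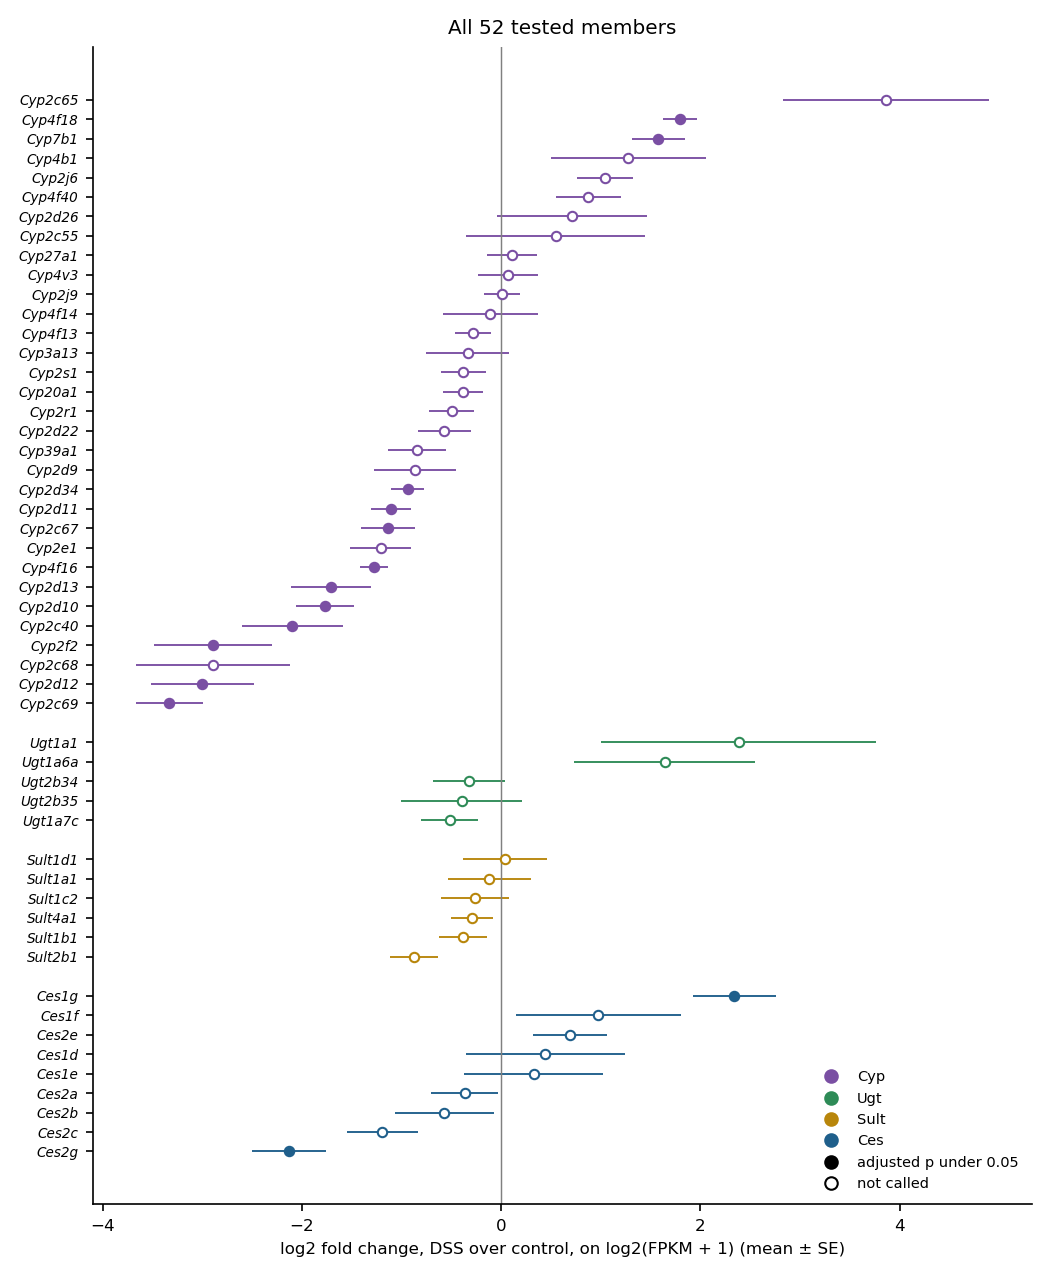
Log2 fold changes of DSS over control (x axis, on the log2(FPKM + 1) scale, points with SE bars) for the 52 tested members, grouped by family from Cyp at the top to Ces at the bottom; filled points have an adjusted p under 0.05. The filled points are 11 fallers and 3 risers, and the largest change in either direction, that of Cyp2c65, is not among them (SE 1.04).

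**Figure D2:**
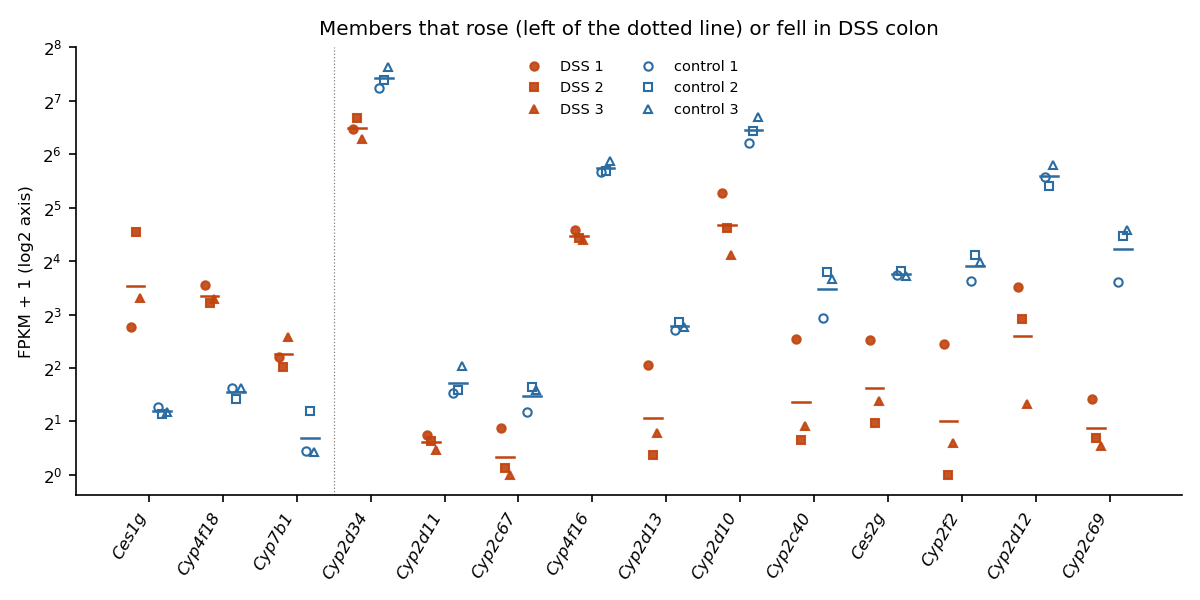
FPKM + 1 on a log2 axis in each DSS sample (filled, left of each gene) and control sample (open, right) for the 14 members that rose or fell; short lines are means on the log scale. In each of the 14 genes the groups do not overlap, and among the 11 fallers DSS 1 is the highest DSS sample in 10.

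The Cyp2d genes, mouse relatives of a major human drug-oxidising enzyme, showed the most calls of any subfamily, with 5 of 8 tested members lower. Apart from Cyp2d13, which had no single match in the annotation, they lie side by side on chromosome 15. Examples are Cyp2d10 at chr15:82402846-82407195 and Cyp2d12 at chr15:82555072-82560403 (GENCODE vM21, GRCm38). Cyp2d12 had 10.5, 6.52 and 1.52 FPKM in DSS 1, 2 and 3, against 46.4, 41.6 and 54.5 FPKM in control 1, 2 and 3. Every DSS sample lay far below every control sample, and its log2 fold change was -3.002 ± 0.52 SE (limma, adjusted p = 0.0185). Cyp2d10 had 37.6, 23.7 and 16.3 FPKM in the DSS samples, against 73.1, 84.9 and 102.5 FPKM in the controls (log2 fold change -1.77 ± 0.29 SE, limma adjusted p = 0.014). Cyp2d34, the most abundant of the subfamily, kept more of its level, with 88.2, 102 and 77.3 FPKM in DSS, against 151, 167 and 196 FPKM in controls (log2 fold change -0.94 ± 0.17 SE, limma adjusted p = 0.0168). Its DSS mean was 52% of the control mean, whereas that of Cyp2d12 was 13%. Cyp2d11 stood at 0.536 ± 0.148 FPKM in DSS samples and 2.34 ± 0.671 FPKM in controls, and Cyp2d13 at 1.39 ± 1.54 FPKM in DSS samples and 5.86 ± 0.331 FPKM in controls (SD, n = 3 each; limma, adjusted p = 0.0175 and 0.0449). The Cyp2d13 call was lost in 10 of 16 alternatives, among them a pseudocount of 0.1 and each other filter (adjusted p up to 0.151). The Cyp2d10 and Cyp2d12 calls were lost without control 2 or control 3, that of Cyp2d12 also without control 1, that of Cyp2d34 without DSS 3, control 2 or control 3, and that of Cyp2d11 without DSS 3. Cyp2d11 and Cyp2c67 did not reach the level for testing when a control was left out.

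Not all Cyp2d genes followed. Cyp2d26 had 2.09, 29.8 and 9.32 FPKM in DSS 1 to DSS 3 and 5.08 ± 0.204 FPKM in controls, so the DSS samples fell on both sides of the controls (log2 fold change 0.71 ± 0.75 SE, limma adjusted p = 0.58). Cyp2d9 had 24.9, 50.8 and 14.1 FPKM in DSS samples and 48.7 ± 4.82 FPKM in controls, and Cyp2d22 had 6.77 ± 2.55 FPKM in DSS samples and 10.1 ± 0.994 FPKM in controls. Neither passed (limma, adjusted p = 0.219 and 0.207). Transcripts of Cyp2d9, Cyp2d10 and Cyp2d11 are at least 95% identical over at least 200 bases, so reads may be split among them. Cyp2d26 matches Cyp2d10 at 95.4% over a shorter stretch of 239 bases, and Cyp2d22, Ces2a and Cyp4b1 have near-identical pseudogenes, which leaves their values uncertain too. Summed, Cyp2d9, Cyp2d10 and Cyp2d11 had 63.1, 75.0 and 30.8 FPKM in DSS 1, 2 and 3, against 122, 132 and 160 FPKM in the controls, and the groups did not overlap.

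Promoter sequences show how alike the copies are upstream. The windows below are the 120 bases before the RefSeq start (GRCm38.p6, 5′ to 3′ on the gene's strand) of Cyp2d10 and Cyp2d11, which fell, and of their near copy Cyp2d9 and the more distant Cyp2d26, which did not pass. Capitals mark TATAAA, the TATA box letters, on either strand.
Cyp2d10, chr15:82407195-82407314, minus strand: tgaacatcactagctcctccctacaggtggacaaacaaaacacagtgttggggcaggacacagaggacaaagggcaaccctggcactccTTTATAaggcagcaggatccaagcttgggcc
Cyp2d11, chr15:82394023-82394142, minus strand: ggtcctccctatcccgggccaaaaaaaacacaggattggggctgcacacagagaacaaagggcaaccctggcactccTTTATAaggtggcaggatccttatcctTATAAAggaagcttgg
Cyp2d9, chr15:82452257-82452376, plus strand: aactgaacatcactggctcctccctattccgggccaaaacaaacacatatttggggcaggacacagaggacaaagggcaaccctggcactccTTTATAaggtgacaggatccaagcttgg
Cyp2d26, chr15:82794246-82794365, minus strand: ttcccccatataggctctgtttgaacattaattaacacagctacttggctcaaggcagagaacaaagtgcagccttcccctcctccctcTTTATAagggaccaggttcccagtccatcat
In the best local alignment of the 250 bases upstream, Cyp2d9 matched Cyp2d11 at 93.0% of 227 columns and Cyp2d10 at 85.2% of 243 columns, but Cyp2d26 at 67.9% of 81 columns. Of 9 Cyp2d genes 5 had a promoter in the table, and Cyp2d12, Cyp2d13 and Cyp2d34, which fell, did not. All 5 hold TATAAA on either strand within their 300-base window. Among genes with a promoter, so do 10 of 13 Cyp2c members, 34.7% of all members and 15.7% of all 27025 genes.

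Of 6 tested Cyp2c genes, which lie in a cluster on chromosome 19, 3 fell and none rose. The Cyp2c enzymes oxidise drugs and arachidonic acid. Cyp2c69 had 1.69, 0.608 and 0.450 FPKM in DSS 1, 2 and 3, against 11.2, 21.2 and 22.9 FPKM in control 1, 2 and 3 (log2 fold change -3.33 ± 0.34 SE, limma adjusted p = 0.0019). Even the highest DSS sample was far below the lowest control. Cyp2c40, which is known to hydroxylate arachidonic acid, had 4.82, 0.576 and 0.888 FPKM in DSS, against 6.68, 13.0 and 11.7 FPKM in controls (log2 fold change -2.10 ± 0.51 SE, limma adjusted p = 0.0494). That call was lost in 10 of 16 alternatives (adjusted p up to 0.162), a pseudocount of 0.1, each other filter and TPM scaling among them. Cyp2c67 fell at lower levels, with 0.834, 0.0899 and a listed 0 FPKM in DSS samples and 1.26, 2.14 and 2.02 FPKM in controls (limma, adjusted p = 0.0438), a call that was lost with a pseudocount of 0.1, with no filter and without DSS 2 or DSS 3. Cyp2c68, the most abundant of this group, had 68.0, 7.81 and 9.69 FPKM in DSS, against 104, 181 and 140 FPKM in the controls. Its groups did not overlap, but the spread among DSS samples left it uncalled (log2 fold change -2.90 ± 0.77 SE, limma adjusted p = 0.0672), and it passed without DSS 1 (adjusted p = 0.000309).

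Since transcripts of Cyp2c40, Cyp2c67, Cyp2c68 and Cyp2c69 are 96.4% to 98.0% identical over 1568 to 1732 bases, values of the single genes are uncertain and their sum is the safer measure. Together they had 75.4, 9.09 and 11.03 FPKM in DSS 1, 2 and 3, against 123, 217 and 177 FPKM in control 1, 2 and 3. The DSS mean was 18.5% of the control mean. DSS 1 was the closest to the controls and still below all of them.

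At the other end of the cluster, Cyp2c65 and Cyp2c66 had higher values in every DSS sample, but neither was called. Cyp2c65 had 18.0, 401 and 131 FPKM in DSS 1, 2 and 3, against 4.63, 6.43 and 6.83 FPKM in control 1, 2 and 3. All DSS samples lay above all controls but far from each other, and the gene was not called (log2 fold change 3.86 ± 1.04 SE, limma adjusted p = 0.0714). Without DSS 1 it passed (log2 fold change 5.06, adjusted p = 0.00176). Its near copy Cyp2c66, 96.4% identical over 1613 bases, did not reach the level for testing, with 0.930, 29.5 and 6.82 FPKM in DSS samples and 0.260 to 0.416 FPKM in controls. Cyp2c55, which makes hydroxylated arachidonic acid, was the most abundant member of all, at 186, 2552 and 1197 FPKM in DSS 1, 2 and 3, against 485, 653 and 576 FPKM in controls. DSS 1 was below every control and the other two DSS samples above them (log2 fold change 0.55 ± 0.90 SE, limma adjusted p = 0.733), and without DSS 1 the gene passed, higher (adjusted p = 0.019). Cyp2c55 held 27.1%, 69.1% and 67.5% of the summed Cyp level in DSS 1, 2 and 3, and 37.6% to 40.4% in control samples.

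**Figure D3:**
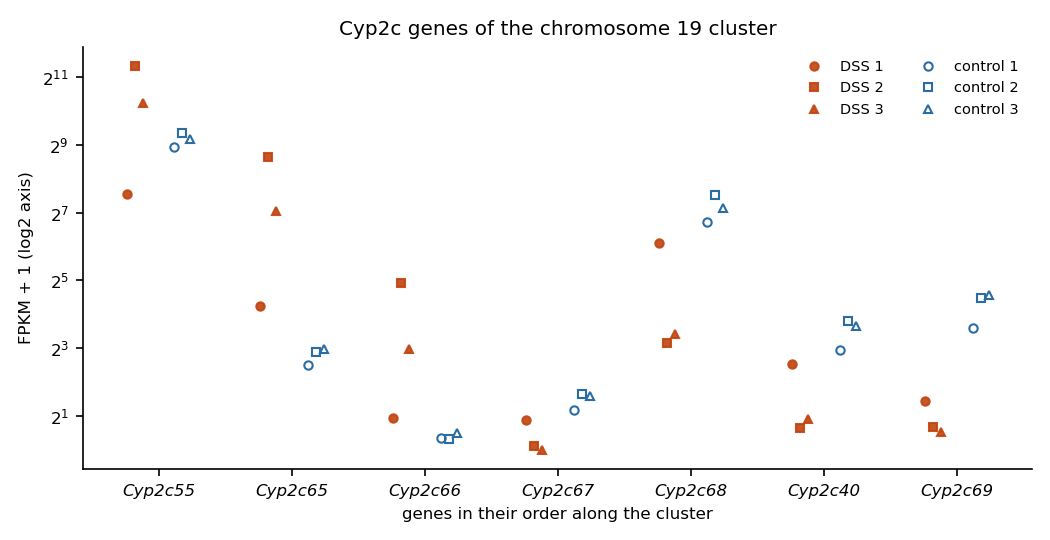
FPKM + 1 on a log2 axis for 7 Cyp2c genes in their order along chromosome 19, in each DSS sample (filled, left) and control sample (open, right); not drawn are Cyp2c29, Cyp2c37, Cyp2c38, Cyp2c50, Cyp2c54 and Cyp2c70, listed at 0 in every sample, and Cyp2c39, at 0.0151 FPKM in control 2 alone. Also not drawn is Cyp2c44, which was under the level for testing and had no match in the annotation. It had 0.290, 0.0397 and a listed 0 FPKM in DSS 1, 2 and 3, against 1.58, 1.05 and 0.884 FPKM in control 1, 2 and 3. With a filter at 0.1 FPKM, with no filter and with TPM scaling it was called, lower. Cyp2c65 and Cyp2c66 are higher in every DSS sample, Cyp2c67 to Cyp2c69 lower in every one, and Cyp2c55 splits DSS 1 from DSS 2 and DSS 3.

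The upstream sequences of the same 7 genes are shown to compare the copies that fell with those that had higher but uncalled values. Each window is again the 120 bases before the RefSeq start (GRCm38.p6, 5′ to 3′ on the gene's strand). Capitals mark CAAAGTC, which begins an element that the nuclear receptor HNF4A is known to bind, and TATAAA, both searched on either strand.
Cyp2c55, chr19:39006899-39007018, plus strand: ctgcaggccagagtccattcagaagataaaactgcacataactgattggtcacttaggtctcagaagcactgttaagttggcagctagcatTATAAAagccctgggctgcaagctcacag
Cyp2c65, chr19:39060886-39061005, plus strand: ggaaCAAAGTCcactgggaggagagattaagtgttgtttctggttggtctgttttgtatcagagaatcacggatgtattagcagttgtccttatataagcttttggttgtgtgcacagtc
Cyp2c66, chr19:39113778-39113897, plus strand: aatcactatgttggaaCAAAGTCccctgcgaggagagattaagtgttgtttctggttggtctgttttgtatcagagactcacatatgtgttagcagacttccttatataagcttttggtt
Cyp2c67, chr19:39649043-39649162, minus strand: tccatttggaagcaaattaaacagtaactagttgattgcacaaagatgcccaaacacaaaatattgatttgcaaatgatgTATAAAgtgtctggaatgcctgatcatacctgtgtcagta
Cyp2c68, chr19:39741102-39741221, minus strand: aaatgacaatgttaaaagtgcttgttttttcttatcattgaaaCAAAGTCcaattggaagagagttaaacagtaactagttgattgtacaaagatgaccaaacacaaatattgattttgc
Cyp2c40, chr19:39812815-39812934, minus strand: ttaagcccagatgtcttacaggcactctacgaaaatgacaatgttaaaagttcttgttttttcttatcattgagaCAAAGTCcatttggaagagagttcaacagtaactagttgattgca
Cyp2c69, chr19:39886770-39886889, minus strand: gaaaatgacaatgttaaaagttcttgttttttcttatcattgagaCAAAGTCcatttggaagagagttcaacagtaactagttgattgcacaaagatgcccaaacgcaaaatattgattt
In local alignments of the 250 bases upstream, Cyp2c40, Cyp2c67, Cyp2c68 and Cyp2c69 matched each other at 92.0% to 98.6% over 169 to 248 columns, and Cyp2c65 matched Cyp2c66 at 87.4% of 238 columns. Cyp2c65 against Cyp2c69 gave 60.2% of 123 columns. CAAAGTC, a motif chosen after these sequences were seen, was present within 300 bases in 6 of these 7 genes, Cyp2c55 being the exception. Cyp2c65 and Cyp2c66, with higher values in DSS, held it too. Among genes with a promoter in the table, it was in 10 of 13 Cyp2c members and 0 of 5 Cyp2d members. Over all members the share was 19.4%, and over all genes 5%. Hnf4a itself had 107, 103 and 111 FPKM in DSS, against 203, 143 and 161 FPKM in controls, with no overlap but short of the threshold (log2 fold change -0.64 ± 0.16 SE, limma adjusted p = 0.0515). Any part of Hnf4a in the Cyp2c differences was not tested.

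Among the Cyp4 genes, which hydroxylate fatty acids and leukotrienes, calls went in both directions. Cyp4f18, known in mouse neutrophils for inactivating leukotriene B4, had 10.7, 8.25 and 8.74 FPKM in DSS 1, 2 and 3, against 2.07, 1.66 and 2.08 FPKM in control 1, 2 and 3. The DSS values were close together and all above the controls, with a log2 fold change of 1.80 ± 0.17 SE (limma, adjusted p = 0.00164), the smallest adjusted p among the members. Of 9 tested leukocyte markers 4 were called higher too, Csf3r of them tested through the DSS samples alone. In all, 7 of the 9 had a positive log2 fold change and 2, Cd68 and Cd79a, a negative one. The share of leukocytes in the Cyp4f18 rise was not tested. Cyp4f16 had 22.9, 20.6 and 20.1 FPKM in DSS, against 50.0, 50.6 and 57.8 FPKM in controls (log2 fold change -1.28 ± 0.14 SE, limma adjusted p = 0.00259). Its near copy Cyp4f37, below the level for testing, was also lower in every DSS sample, at 0.0579 to 0.413 FPKM, against 0.982 to 1.56 FPKM in controls. Cyp4f18, Cyp4f16 and Cyp2c69 were the 3 members that stayed called in all 16 other settings and sample sets tried.

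The remaining Cyp4 genes did not pass. Cyp4f40 had 30.7, 12.4 and 15.5 FPKM in DSS samples and 9.57 ± 2.05 FPKM in controls, with every DSS sample higher (limma, adjusted p = 0.133). Cyp4f14, another leukotriene hydroxylase gene, had 24.6, 102 and 67.1 FPKM in DSS samples and 60.3 ± 8.16 FPKM in controls, and Cyp4f13 had 17.2 ± 3.10 FPKM in DSS samples and 21.0 ± 2.60 FPKM in controls (limma, adjusted p = 0.904 and 0.336). Cyp4b1 stood at 1.21, 21.5 and 10.2 FPKM in DSS 1 to DSS 3 and at 2.42 ± 0.308 FPKM in controls, with DSS 1 below all controls, and it passed without DSS 1 (adjusted p = 0.00482). Cyp4v3 differed by less than its spread, at 6.37 ± 2.47 FPKM in DSS samples and 6.00 ± 1.93 FPKM in controls.

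Of the P450 genes that act on sterols and vitamins, Cyp7b1 rose. Cyp7b1, an oxysterol hydroxylase, had 3.59, 3.04 and 5.02 FPKM in DSS 1, 2 and 3, against 0.360, 1.29 and 0.345 FPKM in control 1, 2 and 3. Every DSS sample was above every control (log2 fold change 1.58 ± 0.27 SE, limma adjusted p = 0.015), and the call was lost without DSS 3, control 1 or control 3. Cyp27a1, the sterol hydroxylase of bile acid synthesis, had 14.6 ± 4.23 FPKM in DSS samples and 13.3 ± 3.03 FPKM in controls, and the groups overlapped. Cyp39a1, another oxysterol hydroxylase, had 4.25, 2.28 and 1.75 FPKM in DSS samples and 5.62 ± 1.504 FPKM in controls (limma, adjusted p = 0.111), and it passed, lower, without DSS 1 (adjusted p = 0.0278). Cyp2r1, which hydroxylates vitamin D, had 0.964 ± 0.458 FPKM in DSS samples and 1.75 ± 0.485 FPKM in controls (limma, adjusted p = 0.199). Genes of steroid hormone synthesis were at or near 0, with Cyp11b1 listed at 0 in all 6 samples and Cyp11a1 read in control 2 alone, at 0.107 FPKM. Cyp24a1, which breaks down vitamin D, was listed at 0 throughout, and Cyp26b1, which breaks down retinoic acid, stayed between 0.196 and 1.31 FPKM.

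Among the other P450 genes, 1 was called. Cyp2f2, known in the lung for activating naphthalene, had 4.49, a listed 0 and 0.505 FPKM in DSS 1, 2 and 3, against 11.4, 16.3 and 14.7 FPKM in controls (log2 fold change -2.89 ± 0.59 SE, limma adjusted p = 0.0313). Its call was lost in 8 of 16 alternatives, with a pseudocount of 0.1 and with no filter among them (adjusted p up to 0.116). Cyp2e1, which oxidises ethanol, had 0.548, 1.196 and 0.310 FPKM in DSS, against 4.67, 2.38 and 1.88 FPKM in controls, with no overlap but just short of the threshold (log2 fold change -1.21 ± 0.31 SE, limma adjusted p = 0.0524). In the other direction, Cyp2j6, of a subfamily that epoxidises fatty acids, had 24.2, 54.1 and 33.0 FPKM in DSS, against 14.8, 18.9 and 16.3 FPKM in controls (log2 fold change 1.04 ± 0.28 SE, limma adjusted p = 0.0605). Its relative Cyp2j9 had 1.52 ± 0.272 FPKM in DSS samples and 1.52 ± 0.333 FPKM in controls. Cyp3a13, a drug-oxidising enzyme, had 47.1, 158 and 59.3 FPKM in DSS samples and 96.8 ± 7.45 FPKM in controls, with DSS 2 above and the other DSS samples below all controls. Cyp2s1 and Cyp20a1 were lower in mean, at 18.6 ± 4.52 and 5.80 ± 1.09 FPKM in DSS samples and 24.3 ± 4.90 and 7.87 ± 1.47 FPKM in controls, and overlapped between groups. Cyp1a1 and Cyp1b1, which the aryl hydrocarbon receptor induces, were not tested. Cyp1a1 stood at a listed 0, 0.381 and a listed 0 FPKM in DSS samples and 0.335 to 0.422 FPKM in controls, and Cyp1b1 at 0.150, 1.48 and 1.13 FPKM in DSS samples and at most 0.0946 FPKM in controls. GCGTG, the core letters bound by that receptor, was found on either strand in 10 of 42 tested members with a promoter in the table (23.8%) and in 35.2% of all genes.

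Of 4 tested Ces1 genes on chromosome 8, 1 rose and none fell. Ces1g, an esterase of lipid handling in liver and gut, rose to 5.79, 22.2 and 8.91 FPKM in DSS 1, 2 and 3, against 1.41, 1.199 and 1.26 FPKM in control 1, 2 and 3 (log2 fold change 2.34 ± 0.42 SE, limma adjusted p = 0.0186). All DSS samples were above all controls, and the DSS mean was 9.53 times the control mean. The call was lost without DSS 3 or any 1 control. Its neighbours were uneven: Ces1f had 7.37, 92.8 and 48.4 FPKM in DSS, while the control samples held at 16.2 ± 0.0458 FPKM, and Ces1d had 7.26, 88.5 and 18.5 FPKM in DSS samples and 17.0 ± 2.08 FPKM in controls. DSS 1 was below every control for both, and neither passed (limma, adjusted p = 0.488 and 0.758), Ces1f being called higher without DSS 1 (adjusted p = 0.00467). Ces1e had 0.848, 13.6 and 5.80 FPKM in DSS samples and 3.61 ± 0.954 FPKM in controls. Ces1b, below the level for testing, was listed at 0 in the DSS samples and stood at 1.01, 0.810 and 1.04 FPKM in control 1, 2 and 3.

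Of 5 tested Ces2 genes, Ces2g fell and none rose. Ces2g had 4.72, 0.967 and 1.59 FPKM in DSS 1, 2 and 3, against 12.4, 13.0 and 12.1 FPKM in control 1, 2 and 3 (log2 fold change -2.13 ± 0.37 SE, limma adjusted p = 0.0164), a call that was lost without DSS 3 or any 1 control. Ces2c, known as an acylcarnitine hydrolase and the most abundant esterase gene of control colon, had 96.6, 281 and 137 FPKM in DSS, against 337, 364 and 370 FPKM in the controls. The groups did not overlap, yet the gene was not called (log2 fold change -1.20 ± 0.36 SE, limma adjusted p = 0.0838), and without DSS 2 it passed, lower (adjusted p = 0.00736). Ces2c has near-identical pseudogene copies. It held 25.7% to 29.6% of the summed Ces level in DSS samples and 50.6% to 52.9% in control samples. Ces2e differed the other way in mean, at 137, 408 and 187 FPKM in DSS samples and 136 ± 11.1 FPKM in controls, with DSS 1 inside the control range (limma, adjusted p = 0.271). Ces2a had 64.7, 177 and 106 FPKM in DSS samples and 138 ± 14.5 FPKM in controls, and Ces2b had 4.82 ± 3.81 FPKM in DSS samples and 6.34 ± 0.960 FPKM in controls, and both overlapped.

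None of 5 tested Ugt genes was called, and Ugt1a1 and Ugt1a6a had far higher values in DSS 2 and DSS 3 than in any control. Ugt1a1, which conjugates bilirubin, had 0.422, 69.7 and 24.1 FPKM in DSS 1, 2 and 3, against 1.61, 0.730 and 2.94 FPKM in control 1, 2 and 3. DSS 1 was below all controls and the other DSS samples above them (log2 fold change 2.38 ± 1.38 SE, limma adjusted p = 0.309). Ugt1a6a, which conjugates phenols, had 3.56, 56.9 and 35.8 FPKM in DSS samples and 5.88 ± 1.01 FPKM in controls. Both passed without DSS 1 (adjusted p = 0.00546 for Ugt1a1 and 0.000919 for Ugt1a6a). Ugt1a7c, the most abundant of the Ugt1a genes in control colon, went the other way in mean, at 63.7 ± 22.3 FPKM in DSS samples and 88.3 ± 15.3 FPKM in controls (limma, adjusted p = 0.275). The Ugt1a genes start at separate first exons and share the rest of 1 locus on chromosome 1, so their values are uncertain, and their sum was 43.1, 210 and 131 FPKM in DSS samples and 81.8, 113 and 93.9 FPKM in controls. Ugt2b34, the leading Ugt gene, had 112, 309 and 165 FPKM in DSS samples and 227 ± 45.0 FPKM in controls, and Ugt2b35 had 6.18 ± 4.54 FPKM in DSS samples and 7.06 ± 2.61 FPKM in controls (limma, adjusted p = 0.599 and 0.711).

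Of 19 sulfotransferase genes 6 were tested and none was called, while 9 were listed at 0 in every sample. Sult1a1, which sulfates phenols, had 103, 359 and 200 FPKM in DSS 1 to DSS 3 and 213 ± 33.1 FPKM in controls (limma, adjusted p = 0.882). Sult1d1, which acts on catecholamines, had 114, 379 and 140 FPKM in DSS samples and 178 ± 22.2 FPKM in controls. Sult1b1, which sulfates thyroid hormone, had 177, 192 and 103 FPKM in DSS samples and 199 ± 17.0 FPKM in controls, and Sult1c2 had 16.5 ± 8.52 FPKM in DSS samples and 18.6 ± 2.94 FPKM in controls. The largest difference was in Sult2b1, the cholesterol sulfotransferase gene, with 11.9, 19.01 and 23.6 FPKM in DSS, against 30.4, 34.7 and 34.2 FPKM in controls. Its groups did not overlap, and its log2 fold change was -0.88 ± 0.24 SE (limma, adjusted p = 0.064). Sult2b1 passed, lower, with values scaled by upper quartile (adjusted p = 0.03997) or by median of ratios (adjusted p = 0.0422), and its adjusted p was up to 0.186 in the other alternatives. Sult4a1, mainly a gene of the nervous system, had 1.15 ± 0.428 FPKM in DSS samples and 1.61 ± 0.320 FPKM in controls.

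**Figure D4:**
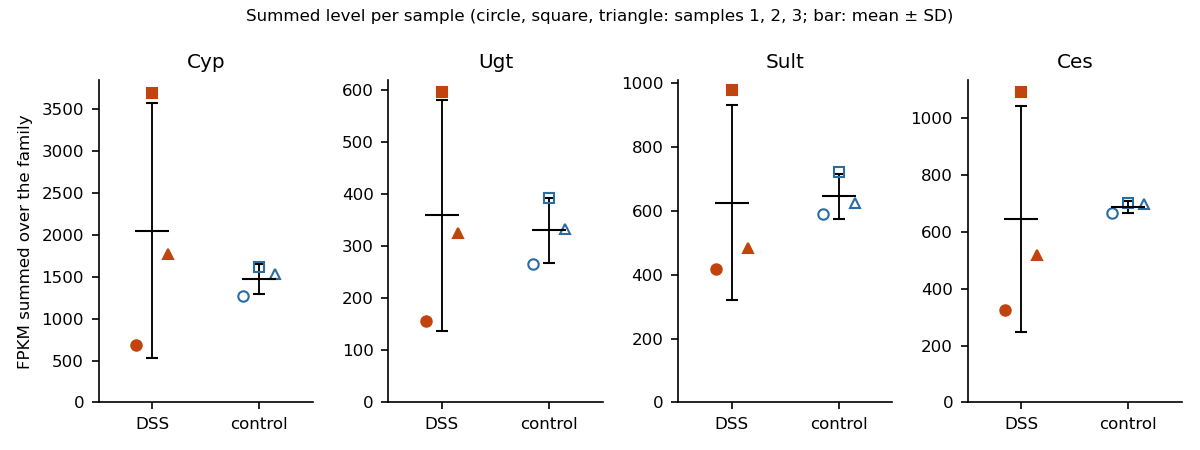
FPKM summed over each family (y axis, from 0) in the 3 DSS samples (filled, left) and 3 control samples (open, right), with the mean and SD. In all 4 families DSS 2 is the highest and DSS 1 the lowest of the 6 samples, on either side of the controls.

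Summed over a family, levels spread widely in DSS and little in control colon. The Cyp sum was 688, 3693 and 1773 FPKM in DSS 1, 2 and 3, against 1268, 1618 and 1531 FPKM in control 1, 2 and 3. Without Cyp2c55 it was 502, 1141 and 576 FPKM in DSS, against 782, 965 and 955 FPKM in controls, so the mean of the DSS samples changed from above the control mean to below it. The Ugt sum was 360 ± 222 FPKM in DSS samples and 331 ± 62.9 FPKM in controls, the Sult sum 625 ± 306 FPKM in DSS samples and 645 ± 69.4 FPKM in controls, and the Ces sum 646 ± 399 FPKM in DSS samples and 689 ± 20.3 FPKM in controls. In each family the groups overlapped.

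The 3 DSS samples stood far apart in many members. The median ratio of the highest to the lowest DSS sample was 2.94 over tested members and 1.47 over all tested genes, counting genes above 0 in each DSS sample, and in control samples it was 1.36 and 1.35. DSS 2 was the highest DSS sample in 31 of 52 tested members, or 59.6%, and in 23.4% of all tested genes. DSS 1 lay below every control in 39 of 52 tested members (75%) and in 18% of all tested genes, and above every control in 13.5% of tested members and in 48.8% of all tested genes. Groups were apart in 16 tested members with DSS below control (30.8%) and 6 with DSS above control (11.5%), where all tested genes gave 9.51% and 25.6%. In DSS 1 alone, the log2 difference from the control mean was -2.07 for Cyp2d12, -2.79 for Cyp2c69, -1.17 for Cyp4f16, 2.00 for Cyp4f18 and 1.51 for Cyp7b1.

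**Figure D5:**
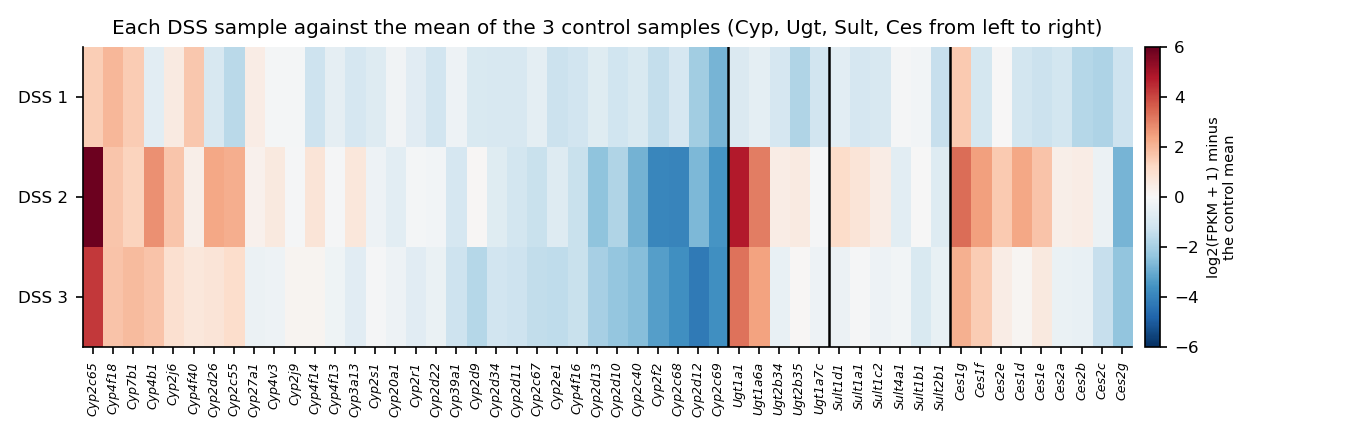
Difference of each DSS sample (rows) from the mean of the 3 control samples on the log2(FPKM + 1) scale (colour, red above and blue below) for the 52 tested members (columns, by family and then by fold change). DSS 1 is blue in most columns, whereas DSS 2 and DSS 3 are red at one end of the Cyp, Ugt and Ces blocks and blue at the other.

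Some members under the level for testing were read almost only in DSS 2 and DSS 3. Of the 49 read at lower levels, 13 (26.5%) had DSS 2 and DSS 3 above every other sample. That held for 23.1% of tested members and 19.6% of all tested genes, so the pattern was not particular to these genes. Ugt2b5 had a listed 0, 57.1 and 19.7 FPKM in DSS 1, 2 and 3, against 0.273, 0.0722 and a listed 0 FPKM in the controls. Cyp3a44 had 11.3 and 7.56 FPKM and Cyp3a25 had 8.57 and 3.04 FPKM in DSS 2 and DSS 3, and both were listed at 0 in DSS 1 and in the 3 control samples. Ugt2b36 had 0.0589, 2.83 and 1.72 FPKM in DSS samples and at most 0.133 FPKM in controls. These genes were named after their values were seen, and all of them except Ugt2b36 have near-identical copies. Of the 105 members not tested, 0, 9 and 8 reached 1 FPKM in DSS 1, 2 and 3, against 3, 1 and 2 in control 1, 2 and 3. Over all 24421 gene rows, tested or not, 12437, 11996 and 12543 reached it in the DSS samples, against 11849, 11977 and 11993 in the controls. Ugt2b38, a near copy of Ugt2b5, had a listed 0, 3.66 and 0.634 FPKM in the DSS samples and was listed at 0 in controls. The same pair of DSS samples had the low posterior Hox sums and the high Fabp2 given above, but the 2 lists were not uniform in DSS 3. Of the 4 tested enterocyte markers 2 were above every control in DSS 3 and 1, Apob, was below. Of the 6 tested Hox genes 5 were below every control in DSS 3 and 1, Hoxa11, was above. The part of either list here was not tested.

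Genes that supply or control these enzymes were taken as 4 lists, and a further list held other enzymes of the same kinds of reaction. None of the 9 genes that supply P450 enzymes with electrons or haem passed (3 at an unadjusted limma p under 0.05, all higher, where 20.3% of all tested genes were). Por, the P450 reductase gene, had 42.1, 46.4 and 53.7 FPKM in DSS 1, 2 and 3, against 29.6, 25.4 and 36.3 FPKM in the controls, with no overlap (log2 fold change 0.63 ± 0.18 SE, limma adjusted p = 0.0692). None of 5 genes listed for glucuronic acid supply passed, among them Gusb, the gene of an enzyme that removes glucuronic acid. Before adjustment 2, Slc35d2 and Gusb, had a limma p under 0.05, both higher. Ugdh, which makes the donor sugar, had 59.3, 439 and 222 FPKM in DSS samples and 150, 223 and 219 FPKM in controls. Of 5 tested genes of sulfate supply, Slc26a2, a sulfate transporter, fell to 31.5, 23.0 and 23.5 FPKM in DSS, against 67.4, 63.5 and 95.3 FPKM in controls (log2 fold change -1.49 ± 0.21 SE, limma adjusted p = 0.00712). The list of transcription factors that sense xenobiotics, sterols or lipids also held Keap1 and Tiparp, which are not transcription factors. None of its 16 tested genes passed (3 at an unadjusted limma p under 0.05, 2 lower and 1 higher, where 28.3% of all tested genes were). Among them Ahr, the aryl hydrocarbon receptor gene, had 5.35, 4.01 and 3.49 FPKM in DSS samples and 3.58, 4.91 and 3.88 FPKM in controls, and Nr1i2, the pregnane X receptor gene, had 23.5, 19.3 and 19.1 FPKM in DSS samples and 18.1, 25.0 and 23.9 FPKM in controls.

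Of 25 other tested enzymes that oxidise, hydrolyse or conjugate, 3 fell and 2 rose. Aadac, an arylacetamide deacetylase, had 24.8, 19.1 and 19.2 FPKM in DSS 1, 2 and 3, against 52.1, 51.8 and 45.8 FPKM in the controls (log2 fold change -1.22 ± 0.16 SE, limma adjusted p = 0.00502). Ephx1, the microsomal epoxide hydrolase gene, had 5.26, 2.45 and 5.25 FPKM in DSS, against 11.1, 13.7 and 11.9 FPKM in controls (limma, adjusted p = 0.0214). Maob, a monoamine oxidase gene, also fell (log2 fold change -0.99 ± 0.22 SE, limma adjusted p = 0.0352). The risers were Pon2, a paraoxonase gene, and Tpmt, the thiopurine methyltransferase gene, at log2 fold changes of 0.70 ± 0.15 SE and 0.71 ± 0.17 SE (limma, adjusted p = 0.0348 and 0.0407), and neither stayed called under upper-quartile or median-of-ratios scaling. Across the 5 lists, 6 of 60 tested genes were called, beside 8.9% of all tested genes.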

How the data were processed

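RNA from 6 colon samples was measured by sequencing. Extraction used TRIZOL, per the labels' protocols, in which poly(A) isolation and non-directional second-strand modules are named, so overlapping genes share reads. The deposited FPKM values are given per gene and sample, per the file headers. TopHat2 2.1.1 and mm10 appear, per the submitters' processing notes, with no role given. Which program and gene models gave the FPKM is not given in the sources used here. No more than 1.55% of genes under 0.5 FPKM fell in a log2 ratio bin of 0.02 between samples, so whole reads could not be recovered and depth is unknown. Even Gapdh was listed at 0, 21.4 and 36.1 FPKM in DSS 1, 2 and 3. In control 1, 2 and 3 it had 2.00, 0.117 and 0.145 FPKM. Some zeros, and some low values above 0, may therefore be failed estimates.

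Genes at 1 FPKM or more in at least 3 samples (12348) were modelled by group as log2(FPKM + 1) (limma 3.58.1, R 4.3.3; robust moderation with a mean trend, two-sided tests, Benjamini-Hochberg over all tested genes, threshold 0.05), a scale that understates changes of low genes. The design named a count test for counts and this fit for FPKM. A ± gives the SD (n = 3) where SE is not written. The fit was tested on simulated data. Members and lists were chosen with earlier results of these data known. The naming rule took called members, the 4 most abundant of each family and a set fixed by name; other tested members, and those named as such, were added after their values were seen. The motif CAAAGTC was also chosen after the sequences were seen. Coordinates are from GENCODE vM21 (155 of 157 members matched) and promoters from RefSeq GRCm38.p6 (124 matched), both on the mm10 assembly. BLAST+ 2.17.0 was used to find near-identical copies (95% identity, 200 bases): 14 of 52 tested members had one, and 4 shared a locus with another gene. Plots used matplotlib 3.10.9 and Python 3.11.15. Alternatives covered pseudocounts, filters, scalings, moderation, the replicate number as a block and each sample left out.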

Additional observations from a re-analysis of the deposited data

How the results depend on the processing

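Of the 14 called members 3 stayed called in all 16 alternatives (Cyp4f18, Cyp2c69 and Cyp4f16), and none changed sign. The count of members called lower was 11, and 7 with a pseudocount of 0.1; the cause was not tested. The count called higher, 3, stayed within 1.5 times under every other pseudocount, filter, scaling and moderation. Leaving out 1 sample at a time gave 1 to 10 members higher and 2 to 13 lower, with fewer samples in each fit. Of all tested genes, 2.05% to 13% were called in these fits. The median log2 fold change over all tested genes, 0.13, was about 0 after either upper-quartile or median-of-ratios scaling.

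The replicate numbers did not pair the samples (same-number correlations 0.0818, 0.129 and 0.00308). With the number as a replicate block, 4 members were higher and 7 lower: Cyp2c40, Cyp2c67, Cyp2d13 and Cyp2f2 were no longer called and Cyp2j6 was.

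Only uncalled genes reversed. With upper-quartile scaling, then with median-of-ratios scaling, Cyp27a1 had -0.0506 and -0.0387, Cyp2j9 -0.0990 and -0.0904, Cyp4v3 -0.0776 and -0.0663, and Sult1d1 -0.134 and -0.121. Rescaled to TPM, Cyp2j9 had -0.0314 and Sult1d1 -0.0188. The cause was not tested. With 1 sample left out, ranges crossed 0 for Ces1d (-0.50 to 1.22), Ces1e (-0.36 to 1.14), Cyp27a1 (-0.0595 to 0.35), Cyp2c55 (-0.26 to 1.62), Cyp2d26 (-0.11 to 1.55), Cyp2j9 (-0.11 to 0.0616), Cyp3a13 (-0.86 to 0.0025), Cyp4f14 (-0.55 to 0.46), Cyp4v3 (-0.19 to 0.24), Sult1a1 (-0.56 to 0.34), Sult1c2 (-0.63 to 0.0732), Sult1d1 (-0.49 to 0.38), Ugt2b34 (-0.72 to 0.0111) and Ugt2b35 (-0.86 to 0.30). Depth is unknown, so counting error could not be given.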
